A study of Mus musculus with 23 samples.

Results

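The 8 genes described here encode the core of the phosphoinositide 3-kinase (PI3K) and AKT pathway: the insulin receptor substrates Irs1 and Irs2, the PI3K catalytic subunits Pik3ca and Pik3cb, the PI3K regulatory subunit Pik3r1, the kinases Akt1 and Akt2, and Gsk3a, a kinase that AKT phosphorylates. They are 8 of 23725 lines of a table of raw RNA-seq counts. The genes were chosen by name, partly because Akt1 stood among the clearest differences between the 2 tissues of the study. Their differences between tissues are therefore given as descriptions, with no test, while their differences between genotypes were tested.

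When insulin or an insulin-like growth factor binds its receptor, substrate proteins such as IRS1 and IRS2 are phosphorylated and recruit PI3K, a dimer of a regulatory and a catalytic subunit. PI3K makes the membrane lipid PIP3, on which AKT is activated by PDK1 and by the mTORC2 complex. Active AKT phosphorylates GSK3, the FOXO transcription factors and the TSC complex, which restrains the growth-promoting mTORC1 complex, so the pathway links growth factors to survival, metabolism and growth.

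The RNA came from mouse embryos of stage E6.25, just after implantation, separated into epiblast (E), the source of the embryo proper, and extra-embryonic tissue (ExE). The 3 genotypes differed at Tet1: wild type (wt), 1 gene-trap allele (Tet1gt/wt, called heterozygous) and 2 gene-trap alleles (Tet1gt/gt, called homozygous). Tet1 encodes an enzyme that oxidises 5-methylcytosine in DNA. The question set by this design is what loss of Tet1 does in each tissue. There were 4 libraries for each tissue and genotype, except for 3 of homozygous ExE, which makes 12 E and 11 ExE libraries. Each library was a pool of at least 6 genotyped embryos, drawn from 2 to 3 litters. No group was treated, and the strain, the position of the trap and any allele other than Tet1 were not given in the sources used here. A pool averages several embryos, so p-values measure the spread between pools and not between embryos. Levels are counts relative to the library total (CPM) scaled by TMM, a normalisation for library composition.

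Libraries held 4912215 to 9494814 counts. All 8 epiblast markers (among them Pou5f1, Nanog and Otx2) had a higher mean in E, and all 10 extra-embryonic markers (among them Cdx2, Elf5 and Esrrb) had a higher mean in ExE. The summed epiblast markers spanned 3025 to 4453 CPM in E and 550 to 1899 CPM in ExE, and the summed extra-embryonic markers spanned 33.0 to 705 CPM in E and 1377 to 3652 CPM in ExE. Summed visceral endoderm markers reached 608 CPM in 1 wt E library, while maternal decidua markers reached 261 CPM in 1 homozygous ExE library. Summed blood markers stayed at or below 23.1 CPM. The heterozygous E library 4, the homozygous E library 3 and the homozygous ExE library 3 stood apart, since their counts fell with gene length (slopes of -0.395 to -0.347, against -0.070 to 0.133 in the other 20) and rose with GC content. Tet1 was at 127, 177, 190 and 197 CPM in wt E, at 66.7 to 147 CPM in heterozygous E and at 55.3 to 113 CPM in homozygous E. Its ExE levels were 77.1 to 110 CPM with 2 intact alleles, 39.3 to 57.1 CPM in heterozygotes and 21.5 to 37.8 CPM in homozygotes. Homozygous and wt libraries did not overlap in either tissue, but the difference did not pass the test in E (log2 -1.08 ± 0.28, SE; adjusted p = 0.920, edgeR) or in ExE (-1.79 ± 0.26; adjusted p = 0.0704), while DESeq2 gave adjusted p of 0.0946 and 2.63e-08. Without the position of the trap, how much of the counted transcript lies outside the disrupted part is not known, so these counts check the labels only in part.

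Akt1 and Pik3cb were the core genes with clearly higher levels in ExE, and Irs1 and Irs2 were those with clearly lower levels. The ExE mean was 3.63 times the E mean for Akt1 and 4.08 times for Pik3cb, whereas the E mean was 3.51 times the ExE mean for Irs2. Irs1 was too close to its detection limit in ExE for an exact ratio. Akt2, Pik3r1, Pik3ca and Gsk3a overlapped between tissues in each of the 3 genotypes. Over all libraries, the E and ExE values of 3 of the 8 core genes (Akt1, Pik3cb and Irs2) did not overlap. Within each genotype those of Irs1 did not overlap either, but groups of 3 or 4 libraries separate more easily. The share of all genes that do so within a genotype was not computed. Of all 13595 genes tested, 7.66% did not overlap between the 12 E and 11 ExE libraries, and 46.1% passed the tissue test at an adjusted p of 0.05 (edgeR's quasi-likelihood test with Benjamini-Hochberg adjustment). As the tissue difference of Akt1 helped choose the set, nothing is read from that comparison. The median log2 difference of the 8 genes was 0.12, beside -0.02 over all genes tested. In bulk tissue, fewer cells that express a gene and less RNA per cell cannot be told apart.

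**Figure D1:**
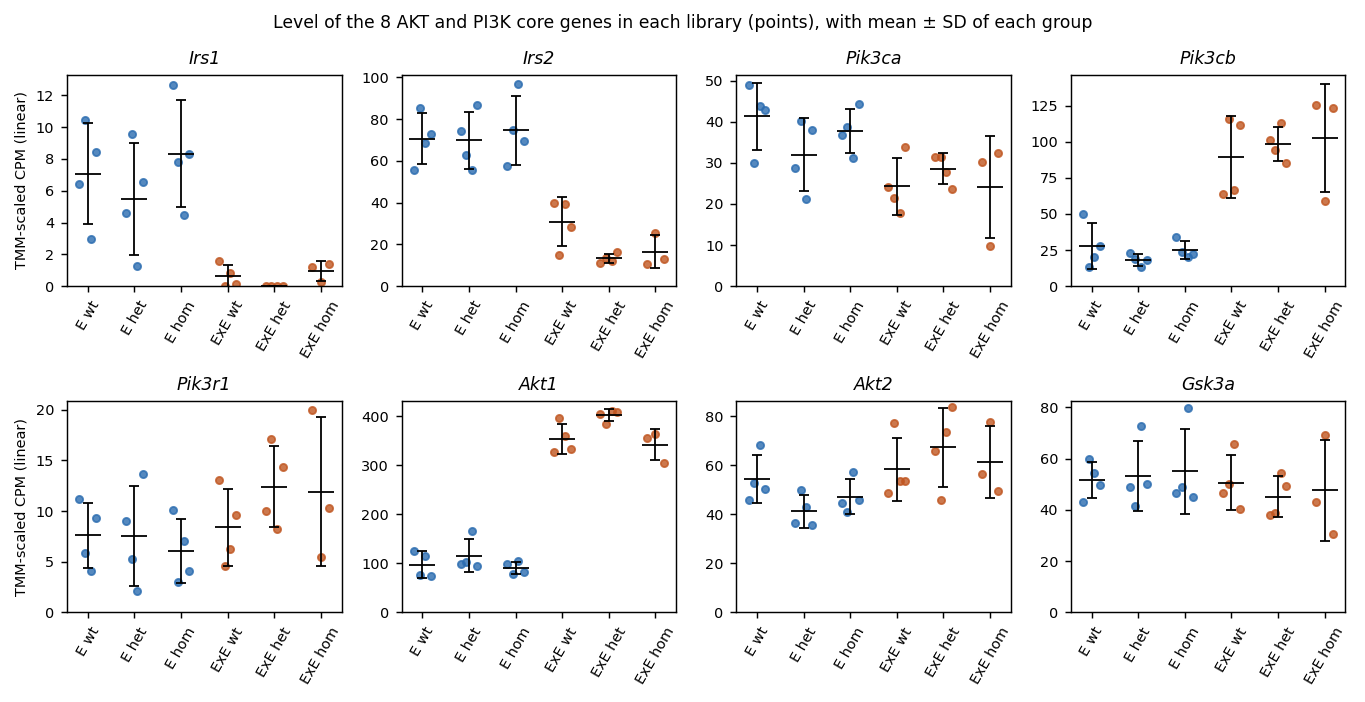
TMM-scaled CPM (vertical axis, linear, its own range for each gene) of the 8 core genes in the 23 libraries, by tissue and genotype (het, heterozygous; hom, homozygous). Points are libraries, with horizontal lines at the mean and bars of 1 SD of each group. Akt1 and Pik3cb lie higher and Irs2 lies lower in every ExE library than in any E library, while Gsk3a and Akt2 overlap throughout.

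Promoters of Akt1, Irs2 and Irs1, which differed between tissues, are shown because Tet1 acts on DNA methylation at CpG sites. That of Pik3cb is not printed, as its window lies partly inside an exon of a GENCODE M21 transcript that starts further upstream. All 8 genes matched entries of the RefSeq promoter set for GRCm38.p6, with 13 annotated starts in all. Each sequence is the 250 bases upstream of an annotated start, 5′ to 3′ on the gene's strand, with CpG dinucleotides in capitals. The first Akt1 start (chr12:112674277-112674526, minus strand) has 31 CpGs, the second (chr12:112674885-112675134, minus strand) has 7, Irs2 (chr8:11008930-11009179, minus strand) has 34 and Irs1 (chr1:82291440-82291689, minus strand) has 28.
Akt1, first start: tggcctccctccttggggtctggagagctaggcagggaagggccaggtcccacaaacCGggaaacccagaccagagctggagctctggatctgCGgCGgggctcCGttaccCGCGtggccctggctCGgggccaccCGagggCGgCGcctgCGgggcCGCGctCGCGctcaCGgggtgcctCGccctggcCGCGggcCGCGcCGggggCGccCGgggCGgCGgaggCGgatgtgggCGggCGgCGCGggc
Akt1, second start: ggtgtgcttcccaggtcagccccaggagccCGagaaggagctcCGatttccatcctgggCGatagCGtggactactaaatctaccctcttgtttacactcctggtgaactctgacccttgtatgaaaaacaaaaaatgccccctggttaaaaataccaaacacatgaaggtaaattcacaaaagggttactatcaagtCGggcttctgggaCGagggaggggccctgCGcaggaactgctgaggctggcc
Irs2: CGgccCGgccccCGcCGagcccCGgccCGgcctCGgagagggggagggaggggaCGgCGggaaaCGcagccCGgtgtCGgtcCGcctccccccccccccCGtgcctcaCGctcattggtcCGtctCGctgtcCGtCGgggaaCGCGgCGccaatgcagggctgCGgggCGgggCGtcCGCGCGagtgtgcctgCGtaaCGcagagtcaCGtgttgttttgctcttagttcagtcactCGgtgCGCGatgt
Irs1: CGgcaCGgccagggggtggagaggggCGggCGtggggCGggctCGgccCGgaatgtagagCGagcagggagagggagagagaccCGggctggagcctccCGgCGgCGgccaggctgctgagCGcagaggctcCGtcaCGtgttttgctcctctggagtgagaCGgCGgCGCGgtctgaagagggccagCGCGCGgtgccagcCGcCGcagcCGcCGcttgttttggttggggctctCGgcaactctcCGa

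Over the 32851 promoters of the set, the median was 6 CpGs, and 5.19%, 3.53% and 7.61% of them held at least as many as the first Akt1 start, Irs2 and Irs1. The first start of Akt1, which was higher in ExE, and those of Irs1 and Irs2, which were lower, were thus all CpG-dense. That first Akt1 window lies inside the annotated gene, downstream of the second start. The second, at the upstream end of the gene, had 7 CpGs, and 46.3% of all promoters held at least as many. The Pik3cb window, with 32 CpGs, is in part exonic. Akt2 had 4 annotated starts with 0 to 10 CpGs, Gsk3a had 9, Pik3ca had 19, and Pik3r1 had 6 and 30 at its 2 starts. A match to the letters GCCNNNGGC, the core bound by TFAP2 factors, was found 3 times at the first Akt1 start and 2 times at 1 Pik3r1 start, and 13.7% of all promoters held at least 1. The FOXO letters GTAAACA, searched on both strands, occurred once, at the second Akt1 start, and in 3.17% of all promoters. The CRE letters TGACGTCA occurred at none of the 13 starts and in 1.55% of all promoters. Overlapping matches were counted separately. No methylation or factor binding was measured here, and a match describes only the letters.

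Akt1, the AKT isoform best known for growth and survival, was at 126, 76.4, 115 and 73.2 CPM in wt E (pools 1, 2, 4 and 5), at 99.4, 102, 167 and 95.2 CPM in heterozygous E (pools 2 to 5) and at 98.2, 77.5, 104 and 82.1 CPM in homozygous E (pools 1 to 4). In ExE it was at 327, 395, 359 and 333 CPM in wt (pools 1, 2, 4 and 5), at 404, 384, 411 and 409 CPM in heterozygous (pools 1, 2, 3 and 5) and at 356, 363 and 306 CPM in homozygous libraries (pools 1, 3 and 4). Values below follow this order. The lowest ExE library was thus far above the highest E library, heterozygous 4, and the heterozygous ExE libraries lay closest together, with a coefficient of variation of 3.07%. The fitted log2 difference, ExE minus E, was 1.86 ± 0.11 (SE, n = 11 and 12). The ratio of ExE to E means was 3.62 for wt, 3.47 for heterozygous and 3.78 for homozygous embryos. Akt1 lies on chr12:112653821-112674884 (minus strand, GRCm38, ENSMUSG00000001729).

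Within E, Akt1 ran in part beside the level of extra-embryonic markers. Its highest E library, heterozygous 4, had summed extra-embryonic markers of 705 CPM. The next, wt 1 and wt 4, had sums of 345 and 183 CPM. Homozygous 1 and 3 had sums of 198 and 379 CPM, with Akt1 at only 98.2 and 104 CPM. In the other 7 E libraries the sums were 33.0 to 76.3 CPM, and Akt1 was at 73.2 to 102 CPM. Without the 5 E libraries above 100 CPM and the 4 ExE libraries whose summed epiblast markers exceeded 1000 CPM, the Akt1 difference was 2.15 ± 0.08 on the log2 scale (SE), larger than with them. The part of these markers' source cells in the levels of single libraries was not tested.

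Akt2, the AKT isoform best known for insulin-stimulated glucose uptake, had overlapping levels in the tissues. In E it spanned 35.5 to 68.2 CPM with a median of 45.8 CPM, and in ExE 45.7 to 83.7 CPM with a median of 56.6 CPM. The log2 difference was 0.40 ± 0.13 (SE). Its ratio of ExE to E means was 1.07 for wt, 1.63 for heterozygous and 1.30 for homozygous embryos, so it was smallest in wt.

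Per kilobase of exon, which allows genes to be compared, the level of Akt1 was 3.82 ± 1.22 (SD, n = 12) times that of Akt2 in E and 10.6 ± 1.81 (SD, n = 11) times in ExE.

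**Figure D2:**
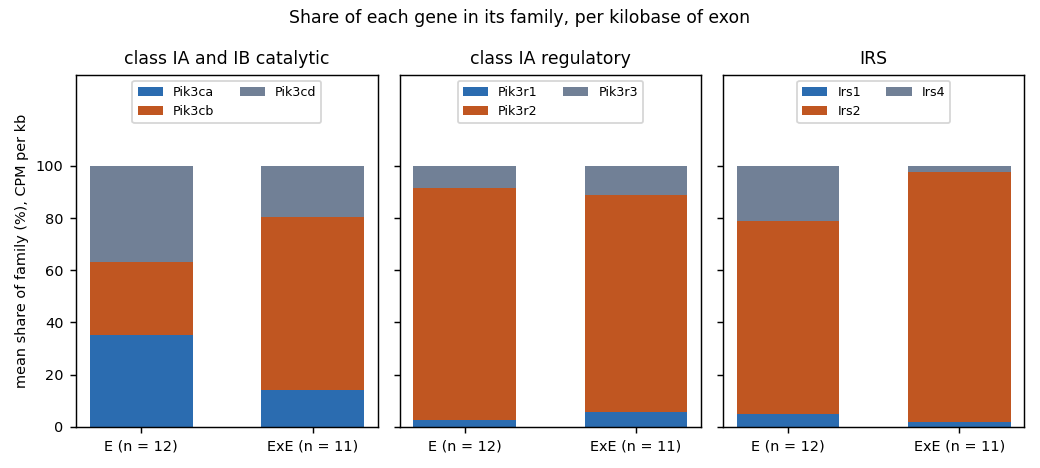
Mean share (%) of each gene in the summed CPM per kilobase of its family, in 12 E and 11 ExE libraries, for the PI3K catalytic subunits, the class IA regulatory subunits and the insulin receptor substrates. Bars are means and carry no error, and Pik3cg, at 0 in every library, is not drawn. Pik3cb takes 27.9% of the catalytic level in E and 66.5% in ExE. Irs2 goes from 74.1% to 96.0% of the summed level of Irs1, Irs2 and Irs4.

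Pik3cb, the p110β catalytic subunit, was at 49.7, 13.4, 20.3 and 28.1 CPM in wt E, at 23.3, 18.5, 13.02 and 17.9 CPM in heterozygous E and at 33.9, 23.4, 19.9 and 22.1 CPM in homozygous E. In ExE it was at 63.6, 116, 66.4 and 112 CPM in wt, at 102, 94.3, 113 and 85.2 CPM in heterozygous and at 125, 59.3 and 123 CPM in homozygous libraries. The tissues did not overlap, although wt E 1 and homozygous ExE 3 came near each other. The log2 difference was 2.05 ± 0.20 (SE). The lowest ExE value belonged to homozygous 3, 1 of the 3 libraries with steep length slopes. Without the 9 libraries with high markers of the other tissue the difference was 2.41 ± 0.16 (SE). Wt E 1 and homozygous E 1, highest for Pik3cb in E, had summed visceral endoderm markers of 608 and 217 CPM. Homozygous E 2 had a sum of 325 CPM, with Pik3cb at 23.4 CPM. The part of visceral endoderm cells in these values was not tested.

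Pik3ca, the p110α subunit through which growth factor receptors commonly signal, leaned the other way. It spanned 21.1 to 49.0 CPM in E with a median of 38.4 CPM, and 9.80 to 33.9 CPM in ExE with a median of 27.8 CPM. The log2 difference was -0.52 ± 0.18 (SE), and the lowest value of each tissue came from a library with steep slopes. Per kilobase, the ratio of Pik3cb to Pik3ca was 0.800 ± 0.239 (SD) in E, with a range of 0.567 to 1.28. In ExE that ratio was 4.94 ± 1.29 (SD), with a range of 3.33 to 7.64, so the balance of the 2 subunits separated the tissues in every library. Pik3cd, another catalytic subunit best known from leukocytes, held 36.9% of the catalytic level in E and 19.5% in ExE, with a log2 difference in level of -0.20 ± 0.23 (SE; adjusted p = 0.519, edgeR).

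Pik3r1, which encodes the p85α regulatory subunit, was low throughout. It spanned 2.11 to 13.7 CPM in E with a median of 6.45 CPM, and 4.54 to 19.98 CPM in ExE with a median of 9.97 CPM, and its groups overlapped widely. The log2 difference was 0.61 ± 0.31 (SE). The related Pik3r2, which encodes p85β, held 88.9% of the regulatory level per kilobase in E and 83.1% in ExE, against 2.48% and 5.54% for Pik3r1. Pik3r2 was lower in ExE by the test, with a log2 difference of -0.61 ± 0.11 (SE; adjusted p = 0.000142, edgeR), while Pik3r3 at -0.05 ± 0.37 (adjusted p = 0.936) did not pass.

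Irs2, an adaptor that couples insulin and IGF receptors to PI3K, was at 55.7, 85.3, 68.6 and 72.9 CPM in wt E, at 74.2, 62.6, 55.8 and 86.9 CPM in heterozygous E and at 57.5, 74.6, 96.9 and 69.6 CPM in homozygous E. In ExE it was at 39.8, 14.9, 39.5 and 28.5 CPM in wt, at 10.96, 13.6, 12.2 and 16.1 CPM in heterozygous and at 10.8, 25.5 and 12.97 CPM in homozygous libraries. All ExE libraries lay below all E libraries, and the 3 highest ExE values were all wt. The log2 difference between tissues was -1.93 ± 0.18 (SE). The ratio of E to ExE means was 2.30 for wt, 5.29 for heterozygous and 4.54 for homozygous embryos. Without the 9 libraries with high markers of the other tissue the difference was -2.37 ± 0.20 (SE).

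Irs1, the sister adaptor, was scarce. It spanned 1.23 to 12.7 CPM in E with a median of 7.19 CPM. In ExE it was at 1.56, 0, 0.831 and 0.135 CPM in wt, at 0 in 4 of 4 heterozygous libraries, and at 1.22, 0.228 and 1.38 CPM in homozygous libraries. A count of 0 allows up to 3 counts, 0.312 to 0.684 CPM depending on the library, so most ExE values were at or near the detection limit, and this limit covers counting error only. Against that limit over the heterozygous libraries (0.430 CPM), Irs1 was at least 12.7-fold lower in heterozygous ExE than in heterozygous E. The E library with the least Irs1 was heterozygous 4, which had the most extra-embryonic markers and a steep length slope. Irs4, a further family member, lay from 6.34 to 36.8 CPM in E and from 0 to 1.78 CPM in ExE, and passed the test as lower there (adjusted p = 3.48e-08, edgeR). Irs2 made up 74.1% of the summed level of Irs1, Irs2 and Irs4 per kilobase in E and 96.0% in ExE.

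Gsk3a, a kinase that restrains glycogen synthesis until AKT phosphorylates it, overlapped widely between the tissues. In E it spanned 41.4 to 79.96 CPM with a median of 49.2 CPM, and in ExE 30.5 to 69.1 CPM with a median of 46.7 CPM. The log2 difference was -0.16 ± 0.15 (SE). Its highest E values, 79.96 and 72.9 CPM, and its highest ExE value, 69.1 CPM, came from the 3 libraries with steep slopes, which also had more counts from GC-rich genes. Its share of the GSK3 level per kilobase was 76.8% in E and 76.8% in ExE, the rest being Gsk3b.

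By mean CPM per kilobase, the order in E was Akt1 (24.7), Gsk3a (18.4), Irs2 (11.3), Akt2 (6.66), Pik3ca (4.08), Pik3cb (3.28), Irs1 (0.761) and Pik3r1 (0.701). Within libraries, Akt1 exceeded Gsk3a in 10 of 12 and Pik3ca exceeded Pik3cb in 9 of 12, while Irs1 exceeded Pik3r1 in 5 of 12, so those last neighbours did not differ beyond their spread. In ExE the order was Akt1 (89.8), Gsk3a (16.5), Pik3cb (13.4), Akt2 (8.74), Irs2 (3.23), Pik3ca (2.84), Pik3r1 (1.07) and Irs1 (0.0532). There Gsk3a exceeded Pik3cb in 7 of 11 libraries and Irs2 exceeded Pik3ca in 5 of 11, which left both pairs undistinguished, and Akt1 was first in 11 of 11. With the longest annotated transcript as the length, Pik3r1 came before Irs1 in E. Irs2 then exceeded Akt2 in 7 of 12 E libraries, against 12 of 12 with the exon length. Likewise, Pik3cb exceeded Akt2 in 7 of 11 ExE libraries, against 10 of 11. The order by mean of these 2 pairs stayed the same, but how many libraries followed it depended on the length used.

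The genes whose log2 levels followed Akt1 most closely over the 23 libraries were Klhl22 (Pearson r = 0.988), Dnmt3l (0.981), Trip10 (0.980), Litaf (0.980) and Ddah1 (0.979), out of 13594 genes ranked. These values are descriptions, over libraries that share the split into 2 tissues. Klhl22, for example, was at 46.1 ± 25.3 CPM (SD, n = 12) in E and 344 ± 52.8 CPM (SD, n = 11) in ExE. Among the core genes, Pik3cb had an r of 0.882 with Akt1, Akt2 0.594, Irs2 -0.897 and Irs1 -0.928. After the 6 group means were removed, DXBay18 (0.944), Gm5640 (0.940), Tex19.1 (0.937) and H19 (0.934) were among the 5 closest. In E, Gm5640 was at 0.573 ± 0.817 CPM (SD, n = 12), near the detection limit, and DXBay18 at 5.08 ± 7.14 CPM, each with a minimum of 0. Their ExE means were 6.99 and 69.0 CPM. Tex19.1 and H19 were also higher in ExE, with means of 281 and 1403 CPM against 24.1 and 121 CPM in E. The part of extra-embryonic material in their E values was not tested. With the group means removed, Pik3cb had an r of 0.103, but of 0.543 without the 3 libraries with steep slopes, so those libraries decide its value. Without the same 3 libraries, 2 and 3 of the 5 closest genes stayed the same in the 2 rankings.

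**Figure D3:**
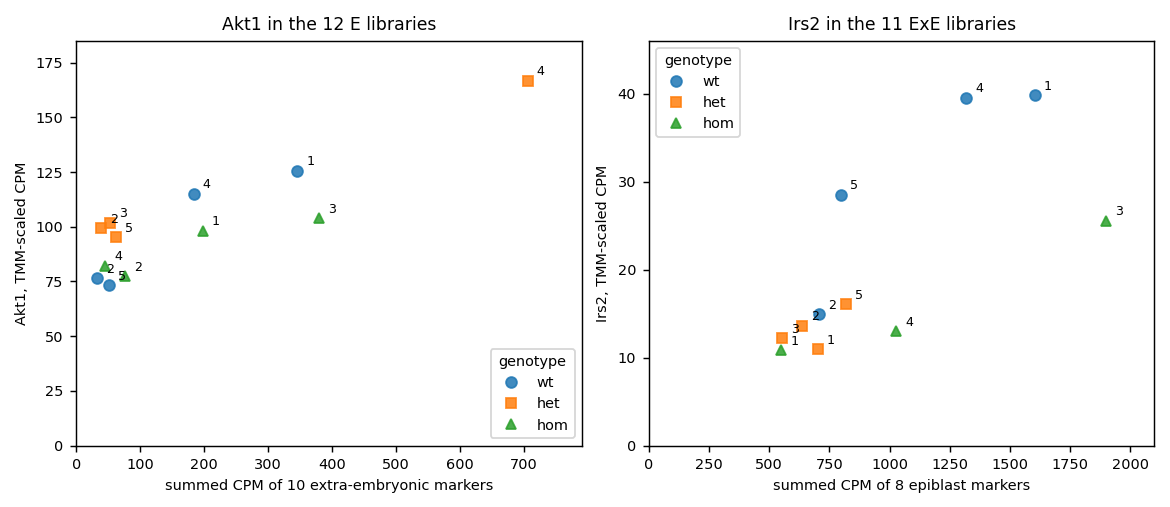
Left, Akt1 (TMM-scaled CPM) against the summed CPM of 10 extra-embryonic markers in the 12 E libraries. Right, Irs2 against the summed CPM of 8 epiblast markers in the 11 ExE libraries. Symbols give the genotype and digits the pool number. The highest Akt1 value in E (167 CPM) sits at the highest marker sum (705 CPM), and the wt libraries with the most Irs2 in ExE (39.8 and 39.5 CPM) have epiblast sums of 1602 and 1317 CPM, while homozygous 3, at 1899 CPM, has 25.5 CPM of Irs2.

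The rest of the pathway was followed with 94 further genes in 7 lists, of which 84 passed the filter on low counts. Between tissues, 41 of these 84 passed the test (48.8%, beside 46.1% of all genes), 14 higher and 27 lower in ExE. The corresponding shares of all genes were 22.1% higher and 23.9% lower. The median log2 difference of the 84 was -0.17, beside -0.02 over all genes.

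Among ligands, receptors and adaptors, 6 of 14 tested genes were higher in ExE and 4 were lower. Igf2, the fetal growth factor, was at 282 ± 79.1 CPM (SD) in ExE and 19.9 ± 23.4 CPM in E, a log2 difference of 3.87 ± 0.53 (SE; adjusted p = 3.41e-06, edgeR). Gab1, a docking protein that recruits PI3K, was at 306 ± 84.99 CPM in ExE and 24.6 ± 17.0 CPM in E (log2 3.64 ± 0.32; adjusted p = 1.32e-08). The adaptor Grb2 rose by 0.92 ± 0.09 and Igf2r, which clears IGF2, by 1.17 ± 0.15 on the log2 scale (adjusted p = 3.51e-08 and 2.10e-06). Igf1r, the receptor for both IGFs, went the other way, at 22.9 ± 8.48 CPM in ExE and 51.5 ± 9.08 CPM in E (log2 -1.16 ± 0.16; adjusted p = 4.08e-06). Insr, the insulin receptor, at -0.10 ± 0.31 (adjusted p = 0.826), did not pass.

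Of 15 tested inhibitors, 7 were lower and 1 was higher in ExE. Trib1, a pseudokinase, was at 10.2 ± 4.68 CPM (SD) in ExE and 38.8 ± 7.15 CPM in E, with a log2 difference of -1.99 ± 0.20 (SE; adjusted p = 5.34e-08, edgeR).

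Among 9 tested genes of AKT activation, 1 was higher and 4 were lower in ExE. Pdpk1, which encodes PDK1, did not pass (log2 0.36 ± 0.24; adjusted p = 0.235, edgeR). Mtor passed at -0.36 ± 0.14 (adjusted p = 0.0371), but with genotype and pool number as a replicate block it did not (-0.34; adjusted p = 0.0570), and it passed in 15 of 30 settings in all. Leaving out 1 library ended its call for 13 of the 23 libraries (adjusted p of 0.0126 to 0.0868 over the 23). Rictor, which defines mTORC2, did not pass (-0.53 ± 0.30; adjusted p = 0.158), but it did with the replicate block (-0.77; adjusted p = 0.0137), without homozygous ExE 4 (-0.91; 0.0109) and without the 9 libraries with high markers of the other tissue (-1.06; 0.00710). In wt the block pairs 4 numbers, of which 1 may not mark shared litters.

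Of 13 tested AKT substrates, 2 were higher and 3 were lower in ExE. Foxo1 was lower, at 54.8 ± 15.4 CPM (SD) in ExE and 78.5 ± 12.3 CPM in E (log2 -0.56 ± 0.15; adjusted p = 0.00308, edgeR). Foxo3 (0.05 ± 0.49; adjusted p = 0.951), Gsk3b (-0.17 ± 0.12; 0.271), Tsc1 (-0.44 ± 0.20; 0.0743) and Tsc2 (-0.06 ± 0.08; 0.572) did not pass. Tsc1 did pass in 6 of 30 settings: with DESeq2 (adjusted p = 0.0450), without the 3 libraries with steep slopes (0.0497, edgeR), and without homozygous E 1 (0.0488), homozygous E 2 (0.0474), wt ExE 4 (0.0417) or homozygous ExE 3 (0.0384). Among 14 mTORC1 and output genes, 2 were higher and 2 lower. Rptor, the mTORC1 scaffold, did not pass (0.12 ± 0.10; adjusted p = 0.377). Sgk1, a kinase related to AKT, was at 33.3 ± 25.0 CPM in ExE and 174 ± 39.1 CPM in E (log2 -2.51 ± 0.24; adjusted p = 2.98e-08).

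The FOXO target list, of genes held down when AKT keeps FOXO out of the nucleus, had 6 of 12 tested genes lower and 2 higher in ExE. The pro-apoptotic Bcl2l11 (-1.20 ± 0.14; adjusted p = 3.49e-07, edgeR) and Sesn3 (-1.85 ± 0.26; 5.39e-06) were lower. Gabarapl1, an autophagy gene (2.21 ± 0.17; adjusted p = 3.57e-09), and Cited2, a transcriptional co-regulator (1.66 ± 0.21; 1.04e-06), were higher. The list therefore did not move in 1 direction. Of the 7 PI3K subunit genes tested besides the core, Pik3r2 was the 1 that passed.

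**Figure D4:**
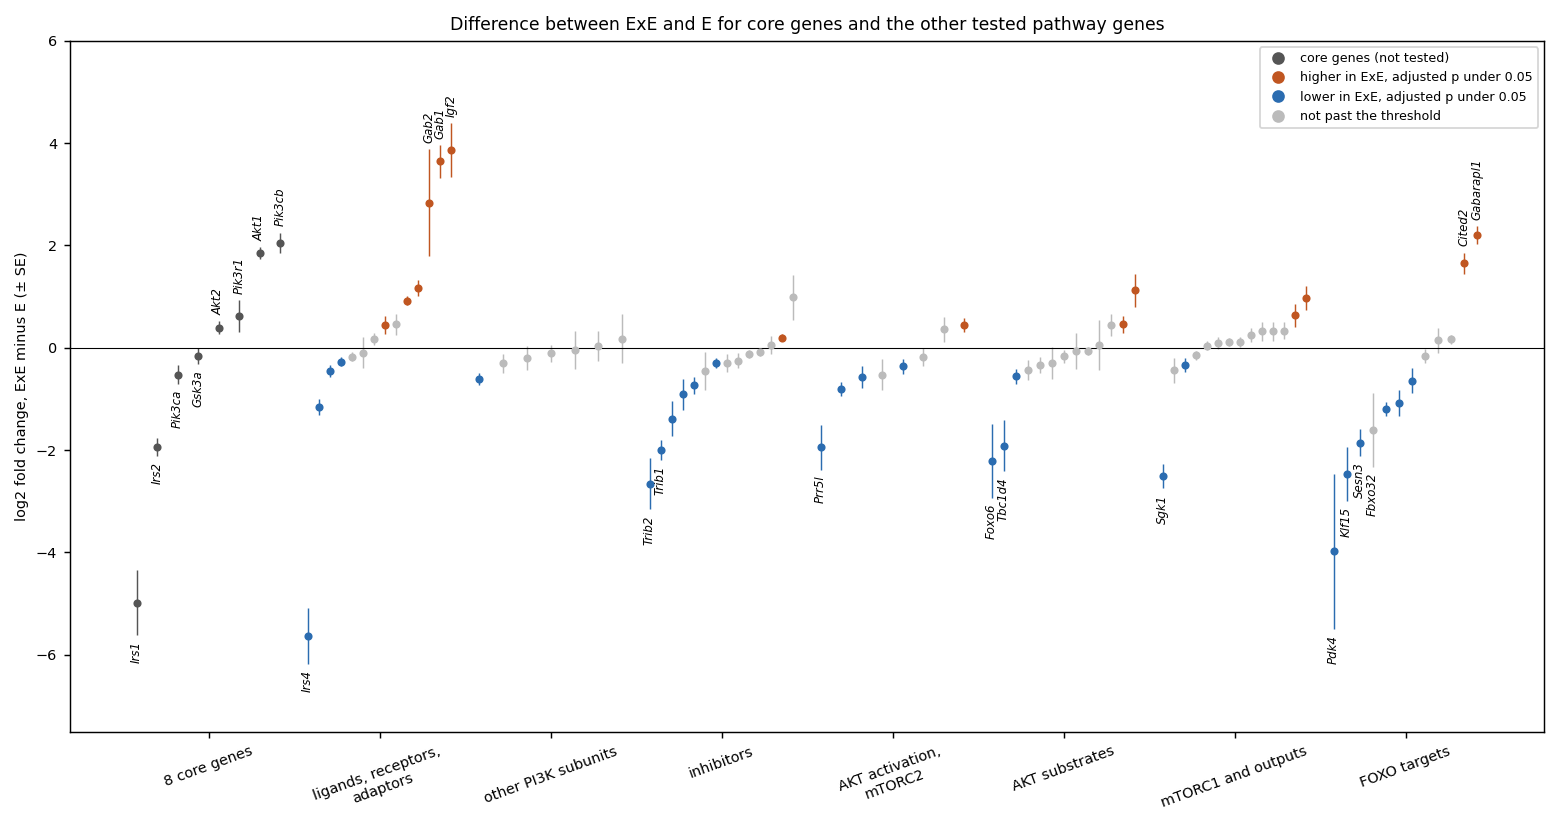
Log2 difference, ExE minus E, with bars of 1 SE, for the 8 core genes (dark grey, not tested) and 82 further pathway genes in 7 lists. Orange and blue mark genes higher and lower in ExE at an adjusted p under 0.05, light grey those that did not pass. The largest values belong to Igf2 and Gab1 among higher and Irs4 among lower genes, and the fitted values of genes with libraries at 0, such as Irs1, Irs4 and Pdk4, depend on the prior count.

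None of the 8 core genes differed between genotypes by the test. In E, 0 of 8 passed for homozygous and 0 of 8 for heterozygous against wt (edgeR adjusted p under 0.05), beside 0.0161% of all 12405 genes and 0%. In ExE, 0 of 7 passed in either comparison, beside 0% of 12355 genes, Irs1 having failed the filter there. The E and ExE comparisons each share their 4 wt libraries. DESeq2 also called 0 core genes in each of these comparisons. At an unadjusted p under 0.05 the counts were 0 and 0 in E and 1 and 1 in ExE for homozygous and heterozygous libraries, beside 4.19%, 2.4%, 7.57% and 4.13% of all genes. No core gene had values that did not overlap with wt in any of the 4 comparisons, beside 4.43% and 2.88% of genes in E and 5.88% and 3.84% in ExE.

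In E, the Akt1 difference from wt was -0.11 ± 0.23 (log2, SE) in homozygous and 0.24 ± 0.23 in heterozygous libraries, with adjusted p of 0.963 and 0.982 (edgeR). In ExE it was -0.06 ± 0.15 and 0.20 ± 0.14, with adjusted p of 0.972 and 1.00. The Akt2 differences were -0.20 ± 0.20 and -0.40 ± 0.20 in E and 0.05 ± 0.25 and 0.22 ± 0.23 in ExE. Pik3cb stood at -0.16 ± 0.36 and -0.61 ± 0.36 in E and at 0.20 ± 0.30 and 0.16 ± 0.28 in ExE. Pik3ca stood at -0.13 ± 0.24 and -0.37 ± 0.24 in E and at 0.01 ± 0.37 and 0.26 ± 0.35 in ExE. Pik3r1 had standard errors of 0.45 to 0.56, and its values ran from -0.32 to 0.59. Gsk3a lay between -0.15 and 0.09 in all 4 comparisons. Even differences of several standard errors, such as that of Tet1 between homozygous and wt libraries, did not pass edgeR's test. With 3 or 4 pools in a group, a core gene that did not pass may still differ.

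The single core gene with an unadjusted p under 0.05 against wt was Irs2 in ExE. It was at -0.93 ± 0.38 (log2, SE) in homozygous libraries, with an unadjusted p of 0.0270 and an adjusted p of 0.584 (edgeR), and at -1.19 ± 0.35 in heterozygous libraries, with 0.00385 and 0.943. All 4 heterozygous libraries (10.96 to 16.1 CPM) lay below 3 of the 4 wt libraries and around the fourth, wt 2 at 14.9 CPM. In E, Irs2 differed from wt by 0.08 ± 0.21 and -0.01 ± 0.21. The difference of the effect between tissues was -0.99 ± 0.43 for homozygous (adjusted p = 1.00) and -1.20 ± 0.41 for heterozygous embryos (adjusted p = 0.641), and neither passed.

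Epiblast markers moved with Irs2 in part. In wt ExE libraries 1, 2, 4 and 5, their sums were 1602, 705, 1317 and 797 CPM, and in heterozygous ExE they were 552 to 817 CPM. Homozygous libraries 1, 3 and 4 had 550, 1899 and 1027 CPM, with Irs2 at 10.8, 25.5 and 12.97 CPM. Without the 9 libraries with high markers of the other tissue, the Irs2 difference was -0.71 ± 0.34 in heterozygous and -1.003 ± 0.522 in homozygous ExE. Wt ExE 1 and 4, which had the most Irs2 in ExE, were among those left out, so both values rest on wt 2 and 5. The homozygous value also rests on 1 homozygous library, which is assumed to vary like the other groups. The part of epiblast cells in the Irs2 values was not tested.

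**Figure D5:**
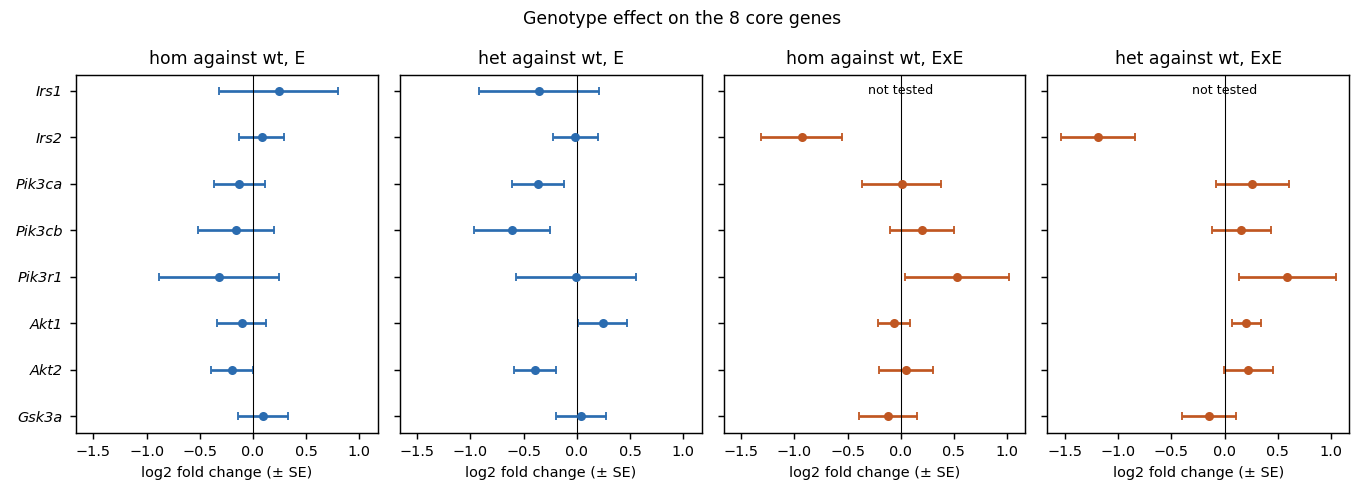
Log2 fold change against wt (horizontal axis, with bars of 1 SE) of the 8 core genes, in homozygous (hom) and heterozygous (het) libraries of E (blue) and ExE (orange). Irs1 was not tested in ExE. Irs2 in ExE lies lowest, at -0.93 and -1.19, and no value passed the adjusted threshold.

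For the tissue difference of the genotype effect, 0 of 8 core genes passed for homozygous and 0 of 8 for heterozygous embryos, beside 0% of 13595 genes, and DESeq2 called 0 as well. At an unadjusted p under 0.05 there were 1 (Irs2) and 2 (Irs1 and Irs2), beside 3.06% and 5.27% of all genes. For Irs1 no fold change is given, as it was at 0 in all heterozygous ExE libraries. Its E levels were 7.07 ± 3.18 (SD) CPM in wt, 5.48 ± 3.499 CPM in heterozygous and 8.32 ± 3.36 CPM in homozygous libraries, with log2 differences from wt of 0.24 ± 0.56 (SE) in homozygous and -0.36 ± 0.56 in heterozygous E.

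Of the further pathway genes, 0 of 83 tested in E and 0 of 82 in ExE passed in homozygous against wt libraries, and 6 and 9 had an unadjusted p under 0.05, beside 4.19% and 7.57% of all genes. In heterozygous against wt libraries, 0 of 83 and 0 of 82 passed, with 4 and 3 at an unadjusted p under 0.05 (2.4% and 4.13% of all genes) and 0 by DESeq2. For the differences of effect, 0 of 84 passed for either genotype in edgeR or DESeq2, with 0 (homozygous) and 2 (heterozygous) at an unadjusted p under 0.05, beside 3.06% and 5.27% of all genes. The smallest adjusted p in E belonged to Tbc1d4, an AKT substrate that gates glucose transporter traffic. It is named after its values were seen. Tbc1d4 was at 19.5 ± 7.86 CPM (SD, n = 4) in homozygous and 4.95 ± 1.52 CPM (SD, n = 4) in wt E, with 8.91 ± 3.44 CPM in heterozygous E. Its homozygous and wt values did not overlap, beside 4.43% of all genes tested in E. Its log2 difference was 1.98 ± 0.43 (SE; adjusted p = 0.488, edgeR), and it passed in DESeq2 (adjusted p = 0.00690) and without the 3 libraries with steep slopes (2.23 ± 0.36; adjusted p = 0.0419, edgeR).

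None of the 14 regulators reported passed edgeR's test in homozygous embryos. In E, Igf1r was at 0.07 ± 0.21 (log2, SE), Insr at 0.09 ± 0.45, Pdpk1 at -0.40 ± 0.40, Mtor at -0.10 ± 0.24 and Foxo1 at -0.17 ± 0.19. In ExE, Igf1r was at 0.45 ± 0.33, Insr at -0.01 ± 0.60, Pdpk1 at -0.66 ± 0.41, Mtor at -0.17 ± 0.26 and Foxo1 at -0.50 ± 0.31. In E, Pik3cd was at 0.25 ± 0.40, Pik3r2 at -0.05 ± 0.18, Pik3r3 at -0.61 ± 0.55, Rictor at -0.08 ± 0.42, Gsk3b at -0.25 ± 0.17, Foxo3 at -0.31 ± 0.90, Tsc1 at -0.06 ± 0.34, Tsc2 at 0.15 ± 0.14 and Rptor at -0.27 ± 0.20. In ExE, Pik3r2 was at -0.27 ± 0.23, Pik3r3 at 0.47 ± 0.66, Rictor at -0.14 ± 0.55, Gsk3b at 0.04 ± 0.27, Foxo3 at 0.34 ± 0.78, Tsc1 at 0.38 ± 0.34 and Tsc2 at -0.17 ± 0.18. The smallest unadjusted p among them in ExE belonged to Rptor (-0.43 ± 0.18; 0.0339) and Pik3cd (-0.85 ± 0.38; 0.0404), with adjusted p of 0.604 and 0.622.

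Some counts could include reads of a neighbour, because the strand setting of the counting was not given in the sources used here. By GENCODE M21, exons of Irs1 overlap those of Gm9747 on the opposite strand over 2822 bases, those of Irs2 overlap 9530052E02Rik over 162 bases and those of Gsk3a overlap 9130221H12Rik over 820 bases. 9530052E02Rik was at 0 in every library and 9130221H12Rik reached 2.76 CPM.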

How the data were processed

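The authors deposited raw counts for 23 libraries in 1 table, as whole numbers without normalisation. Per the labels' protocols, 1 to 10 ng of RNA per pool was amplified with a SMARTer kit and read as single 75-bp reads. Trimming used cutadapt (1.7.1) and FastX (0.0.13), and filtering used ShortRead (1.16.3, dropping reads under 35 bp), per the series' design text. TopHat2 2.0.12 and mm10 (GRCm38) are named in the submitters' processing notes. The counting program, annotation and strand setting were not given in the sources used here. Reads were amplified without molecular identifiers, so the detection limits cover counting error only. The SE and SD values given include the spread between pools. In all 33 within-group pairs the libraries differed beyond counting noise (chi-square per degree of freedom 12.3 to 118), so none repeated another. Symbols altered into dates affected 27 of 23725 lines and no core gene.

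The analysis used edgeR 4.0.16 (R 4.3.3): filterByExpr (minimum count 10, minimum total 15), TMM scaling, glmQLFit and glmQLFTest (two-sided), and Benjamini-Hochberg adjustment over every gene tested (threshold 0.05). Genotypes were compared in a fit of 1 tissue, and tissues and differences of effect in a fit of all 23 libraries, the tissue difference being averaged over genotypes. Log2 fold changes use a prior count of 0.125, and log2 levels a prior count of 2. Of 23723 symbols, 98.5% matched GENCODE M21 for positions and exon lengths. The fits were tested on simulated data. Alternatives were DESeq2 1.42.0, other size factors, no filter, a fit of all libraries, each library left out, 3 libraries with steep length and GC slopes left out, and the replicate block. Leaving out the 9 libraries with high markers of the other tissue (summed extra-embryonic markers over 100 CPM in E, epiblast markers over 1000 CPM in ExE) was chosen after seeing the data.

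The core genes and lists were chosen with earlier results of these data known. Named besides the core were 16 regulators whatever their p (14 are reported, and some other genes are also not reported here), and up to 12 pathway genes with the largest tissue difference among called genes whose E and ExE libraries did not overlap and whose mean log2 CPM was 1 or more (11 met this).

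The labels state that E and ExE pools of 1 number shared litters in 3 of 4 pools, so the replicate block pairs the tissues by number. E and ExE share 3 numbers in each mutant genotype but all 4 in wt, so 1 wt number may not mark a true pair. Deviations from group means in same-numbered E and ExE pools correlated by -0.041 to 0.460 (median 0.070, 10 pairs), against a median of -0.018 in 34 other pairs.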

Additional observations from a re-analysis of the deposited data

Results flagged for a closer look

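2 libraries lay far from the others of their group, out of 39 groups and genes examined by Dixon's criterion at 95%, where chance alone marks about 1 in 20. Akt1 was at 166.6 CPM in heterozygous E library 4, against 95.2, 99.4 and 102 CPM in the other 3. This library also had the highest sum of extra-embryonic markers in E (705 CPM) and was 1 of the 3 with steep length slopes. Gsk3a was at 79.96 CPM in homozygous E library 3, against 45.1, 46.8 and 48.7 CPM in the other 3. That library too had a steep length slope, and its extra-embryonic marker sum was 379 CPM. The part of these features in either value was not tested.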

How the results depend on the processing

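The log2 difference of Akt1 between ExE and E ran from 1.82 to 2.15 over 29 alternatives, with 2.15 without the 9 libraries with high markers of the other tissue. No core gene passed in a genotype comparison or a difference of effect under any alternative. Pathway genes called in homozygous against wt E went from 0 to 1 with DESeq2 and to 1 without the 3 libraries with steep slopes, Tbc1d4 each time. It passed in 2 of 16 settings and was higher in 16 of 16 (1.81 to 2.23). Pathway genes called between tissues numbered 34 to 50 over 30 settings, 50 of them with the replicate block and 43 without those 9 libraries, and 31.6% to 37.8% of them were higher in ExE. The replicate block changed the call of Mtor and Rictor among the named genes. The Irs2 difference in heterozygous ExE ran from -1.42 to -0.71 and in homozygous ExE from -1.37 to -0.72. Signs of uncalled genotype values of core genes changed in 67 of 787 cases, those of their tissue differences in 0 of 232. Signs of the other named genes changed in 55 of 523 genotype and 19 of 783 tissue values. Irs1, Pik3r1 and Foxo3 had too few counts for small differences to be seen. The cause of these changes was not tested.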
